A study of Homo sapiens with 12 samples.

Results

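The keratin genes of DU145 cells were examined in 4 groups that crossed a knockdown, labelled shSigma, with culture as attached cells or as tumor spheres. The genes were all protein-coding genes with a symbol made of KRT, a number and at most one letter from A to C, which gave 55 of the 28747 genes in the count table. DU145 is an established human prostate cancer line that is castration resistant. It carried either a control short hairpin RNA (shCtrl) or the knockdown hairpin (shSigma), each delivered by lentivirus and kept as a stable line under puromycin. Adherent cells grew attached in RPMI medium with serum, and tumor spheres grew without attachment on poly-HEMA in serum-free medium with growth factors (EGF, FGF2), insulin and B-27. Attachment, serum and supplements changed together, so their effects cannot be told apart, and a difference between the hairpins cannot be told apart from one between the stable lines. Each group had 3 RNA-seq libraries, written here as replicates 1, 2 and 3. The protocols call these independent replicates of the cultures, so the p-values measure the spread between replicates of a single stable line per hairpin.

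Keratins are the intermediate filament proteins of epithelial cells. A filament is built from pairs of one type I and one type II keratin, and a chain without a partner is usually degraded. In the prostate, luminal secretory cells make the simple keratins KRT8 and KRT18, and basal cells make KRT5 with KRT14 and KRT15. KRT7 and KRT19 are simple keratins of ducts and glands, and KRT19 is also found in cells between the basal and luminal states. The 55 genes held 26 type II genes, all on chromosome 12, and 29 type I genes, of which 28 were on chromosome 17 and 1, KRT18, lay beside KRT8 on chromosome 12.

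The RefSeq table of promoters (GRCh38.p14) held 34 of the 55 genes, and 3 are printed because they stand for 3 levels in these cells. KRT10 was expressed in every library, KRT4 had a few reads, mainly in control tumor spheres, and KRT5, the defining type II keratin of basal cells, was at or near 0. Each run covers the 250 bases before the RefSeq start, which was also the start of the MANE Select transcript. Capitals mark TATAAA in KRT10, which begins 29 bases before the start, and the AP-2 motif GCCNNNGGC in KRT4, which begins 105 bases before it. Both strands were searched, and KRT5 held no match to the motifs used.
KRT10 promoter, chr17:40822615-40822864, minus strand: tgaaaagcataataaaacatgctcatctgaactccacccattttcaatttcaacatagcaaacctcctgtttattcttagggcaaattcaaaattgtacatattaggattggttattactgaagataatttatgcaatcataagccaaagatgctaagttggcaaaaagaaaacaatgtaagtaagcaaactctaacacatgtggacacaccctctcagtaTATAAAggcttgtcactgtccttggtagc
KRT4 promoter, chr12:52814117-52814366, minus strand: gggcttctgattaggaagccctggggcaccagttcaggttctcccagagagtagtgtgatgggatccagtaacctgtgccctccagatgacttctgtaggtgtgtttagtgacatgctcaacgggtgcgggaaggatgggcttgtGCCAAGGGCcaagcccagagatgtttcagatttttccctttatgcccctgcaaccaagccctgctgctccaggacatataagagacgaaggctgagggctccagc
KRT5 promoter, chr12:52520395-52520644, minus strand: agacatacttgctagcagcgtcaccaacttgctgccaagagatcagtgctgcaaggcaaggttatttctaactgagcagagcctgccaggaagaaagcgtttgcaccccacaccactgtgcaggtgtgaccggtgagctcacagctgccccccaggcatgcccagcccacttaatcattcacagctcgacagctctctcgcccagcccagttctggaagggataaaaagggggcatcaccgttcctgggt
TATAAA occurred in the promoters of 21 keratin genes and in 10.7% of 35116 promoters of this length. Of the other motifs searched, the GC box (GGGCGG) matched 4 keratin genes, the AP-2 motif matched 5 and the AP-1 motif (TGANTCA) matched 0, and 42.6%, 19.8% and 6.57% of all promoters held them. The table's KRT8 window began 21393 bases upstream of the MANE Select start and is not printed.

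The libraries held 16472722 to 26957777 counted reads. Levels are given in CPM, read counts scaled to library size. These were scaled by TMM factors, and fold changes came from quasi-likelihood fits in edgeR. Their p-values were adjusted by the Benjamini-Hochberg method across the whole table, and called genes are those with an adjusted p below 0.05. Replicate 3 of the adherent shSigma group stood apart from the other two libraries of that group, with KRT7 and KRT19 nearer to the control level, and values without it are given for the simple keratins. Replicate 1 of the adherent shCtrl group deviated from its own group in a like way (correlation 0.816), with the lowest KRT7 and KRT19 of that group. Values that leave out only the shSigma library are therefore one-sided.

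Expression was concentrated in a few keratins. Reads of the 55 genes made up 0.118% to 0.160% of a library in adherent shCtrl cells, 0.256% to 0.366% in adherent shSigma cells, and 0.164% to 0.187% in tumor spheres of either line. KRT7, KRT8, KRT18 and KRT19 together took 91.6% of the 497102 keratin reads. No read was counted for 26 keratins in any library, 17 of them among the 26 hair follicle keratins. Another 16 had between 1 and 11 reads over the 12 libraries and at most 4 in any one. The remaining 13 passed the filter on low counts in at least 1 comparison, and these were KRT7, KRT8, KRT18, KRT19, KRT80, KRT10, KRT15, KRT81, KRT86, KRT83, KRT4, KRT16 and KRT32. KRT20, the simple keratin of the gut and urothelium, was at 0, and of the hyperproliferation-associated type II genes KRT6A had 5 reads in all and KRT6B and KRT6C had none.

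The basal side was nearly empty apart from one gene. KRT5 had 4 reads in the 12 libraries and no more than 1 in any of them. KRT14, the type I partner of KRT5, had 1 read, in a shSigma tumor sphere library. KRT17, a basal keratin also induced in stressed epithelium, had 7 reads, of which 3 were in 1 shSigma tumor sphere library. These were at or under a floor of 3 reads per library, which corresponded to 0.115 to 0.176 CPM, so no fold change is given and differences below that level were not detectable at this depth. Floors of this kind cover counting error only. KRT15, a type I keratin of basal cells that is also a marker of hair follicle stem cells, was the exception with 1611 reads.

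KRT15 was mainly a tumor sphere keratin. In adherent shCtrl cells it was at 1.23, 1.31 and 1.70 CPM (32, 31 and 43 reads), and in adherent shSigma cells at 1.86, 1.90 and 1.83 CPM (39, 37 and 38 reads). Control tumor spheres held 18.3, 16.9 and 15.9 CPM (312, 307 and 316 reads), and shSigma tumor spheres 7.71, 8.27 and 7.79 CPM (153, 156 and 147 reads). Every tumor sphere library was above every adherent library, and the 3 control tumor sphere libraries were above the 3 shSigma ones. The level rose 12.01-fold from adherent cells to tumor spheres in the shCtrl line (log2 fold change 3.59, SE 0.154, adjusted p = 1.63e-06) and 4.31-fold in the shSigma line (2.11, SE 0.122, adjusted p = 1.19e-05). Knockdown lowered it 2.15-fold in tumor spheres (log2 fold change -1.11, SE 0.0989, adjusted p = 1.77e-06). In adherent cells the corresponding log2 fold change was 0.34 (SE 0.185, adjusted p = 0.17), and the knockdown effect differed between the cultures by -1.50 (SE 0.192, adjusted p = 6.16e-05). These calls held under all 15 alternatives of each comparison and all 20 of the difference. Only 0.124% of the 75-base windows of KRT15 transcripts also occurred in transcripts of another gene, so sharing of reads with a relative was small. In bulk RNA, fewer expressing cells and less RNA per cell cannot be told apart.

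**Figure D1:**
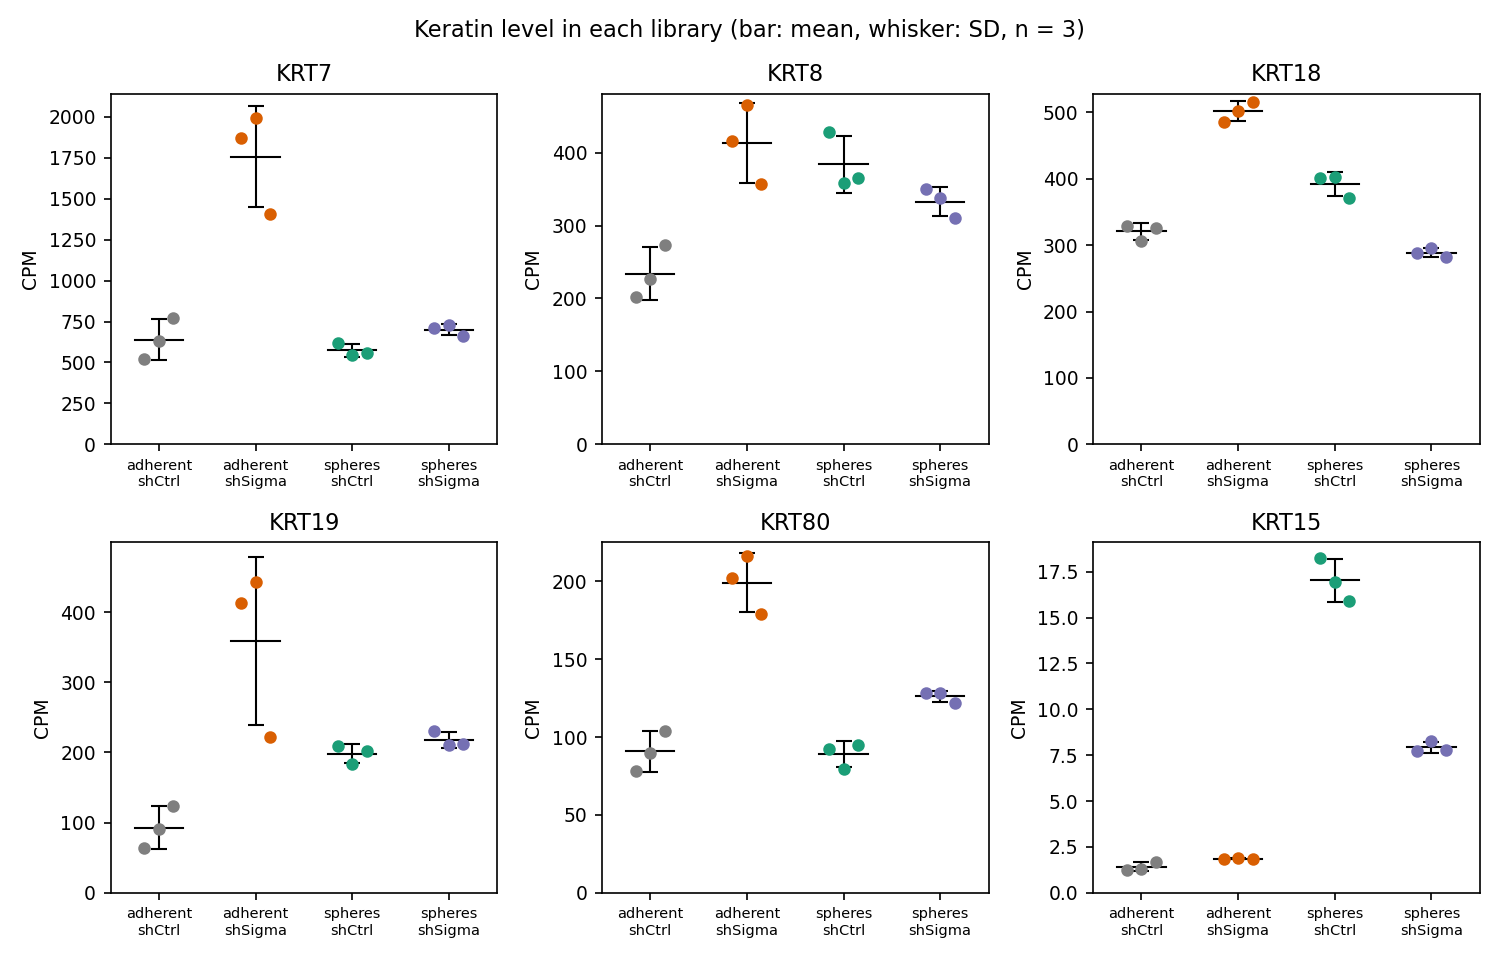
Level of 6 keratins in each of the 12 libraries, in CPM on linear axes that start at 0, with points for libraries, a bar for the group mean and whiskers for the SD (n = 3). KRT7, KRT8, KRT18, KRT19 and KRT80 are highest on average in adherent shSigma cells, whereas KRT15 is highest in control tumor spheres, at 15.9 to 18.3 CPM.

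The 4 simple keratins dominated in every group. Per length of gene, as CPM per kilobase of merged exons, KRT7 ranked 139th of 14060 genes in adherent shCtrl cells, 33rd in adherent shSigma cells, 166th in control tumor spheres and 109th in shSigma tumor spheres. KRT18 ranked 263rd, 114th, 199th and 270th in the same order. KRT15 stood at 12582nd, 12421st, 8638th and 10464th by this length, which for KRT15 is long. In control tumor spheres it was at 2.86 CPM per kilobase of merged exons (5969 bases) and 9.96 per kilobase of its MANE Select transcript (1712 bases), and ranks by the latter were not computed. Among the 8 luminal and basal genes compared (KRT7, KRT8, KRT18 and KRT19 against KRT5, KRT14, KRT15 and KRT17), the simple keratins made up 99.93% ± 0.00363 (SD, n = 3) of the summed level per kilobase in adherent shCtrl cells and 99.96% ± 0.00634 in adherent shSigma cells. The share was 99.31% ± 0.0212 in control tumor spheres and 99.67% ± 0.0168 in shSigma tumor spheres. The basal remainder, nearly all KRT15, was thus 0.0708% and 0.0405% in adherent cells and 0.690% and 0.332% in tumor spheres, and its ranges in the 4 groups did not overlap. These shares are a description, with no test. By the length of the MANE Select transcript in place of merged exons the basal remainder was 0.101%, 0.0586%, 0.999% and 0.478%, in the same order of groups.

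Adherent cells gained simple keratins on knockdown. Of the 9 keratins tested in this comparison, 7 rose and 0 fell by edgeR (0 also at an unadjusted p below 0.05 and by DESeq2), while 50.0% of all 13764 genes tested were called, 22.3% as higher and 27.7% as lower. The median log2 fold change of the 9 was 1.08, against -0.01 over all genes. The 7 were KRT7, KRT8, KRT18, KRT19, KRT80, KRT81 and KRT86, and 5 of them changed by more than 1 on the log2 scale, as did 13.7% of all genes. KRT81 and KRT86 share part of their sequence, so in this count and those below they may not be separate signals. The libraries of the groups did not overlap for 8 of the 9, against 57.9% of all genes.

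KRT7, the type II keratin of ducts, was at 519, 632 and 770 CPM in adherent shCtrl cells and at 1871, 1993 and 1408 CPM in adherent shSigma cells. The groups did not overlap, and the level rose 2.65-fold (log2 fold change 1.40, SE 0.195, adjusted p = 0.00134), or by 1.56 (SE 0.142, adjusted p = 0.000118) on the log2 scale without replicate 3 of the shSigma cells. KRT19, the smallest keratin and one without a tail domain, rose from 63.7, 90.2 and 124 CPM to 412, 443 and 222 CPM. Replicate 3 of the shSigma cells lay below the other two of its group but above every control library, and the log2 fold change was 1.91 (SE 0.357, adjusted p = 0.00573) with it and 2.18 (SE 0.254, adjusted p = 0.00145) without it. KRT8, the type II keratin of luminal cells, rose from 202, 227 and 273 CPM to 416, 466 and 356 CPM (log2 fold change 0.76, SE 0.145, adjusted p = 0.00454), with 0.88 (SE 0.116, adjusted p = 0.000542) without that library. Its partner KRT18 showed the tightest groups, with 329, 307 and 326 CPM against 486, 502 and 516 CPM, and rose 1.497-fold (0.58, SE 0.0611, adjusted p = 0.00022), with 0.59 (adjusted p = 0.00054) without it. Within the simple class, the fold changes of KRT7 and KRT19 were thus larger than those of KRT8 and KRT18, and no test was made of that difference. In this comparison the call held for each of the 4 genes under all alternatives except the added fold threshold, which KRT8 and KRT18 did not pass. Over the 15 alternatives the log2 fold change ran from 1.32 to 1.56 for KRT7 and from 1.74 to 2.18 for KRT19. For both genes the highest value was the one without replicate 3 of the shSigma cells.

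KRT80, a type II keratin of many epithelia that is found near desmosomes, rose from 78.2, 90.0 and 104 CPM to 202, 217 and 179 CPM (log2 fold change 1.08, SE 0.122, adjusted p = 0.000334). KRT10, a type I keratin of differentiating epidermis, was at 23.7 to 28.3 CPM in shCtrl and 24.0 to 25.5 CPM in shSigma cells. Its log2 fold change was -0.12 (SE 0.1, adjusted p = 0.371). KRT81 and KRT86, type II keratins of the hair cortex, had few reads. KRT81 went from 26, 27 and 46 reads to 136, 135 and 88 (log2 fold change 2.10, SE 0.29, adjusted p = 0.000794), and KRT86 from 18, 14 and 20 reads to 112, 111 and 82 (2.78, SE 0.23, adjusted p = 7.77e-05). Transcripts of KRT81 and KRT86 shared 36.6% and 33.8% of their 75-base windows with other genes, mostly with each other, and how reads with several alignments were counted is not given in the sources used here, so which of the pair changed is uncertain.

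**Figure D2:**
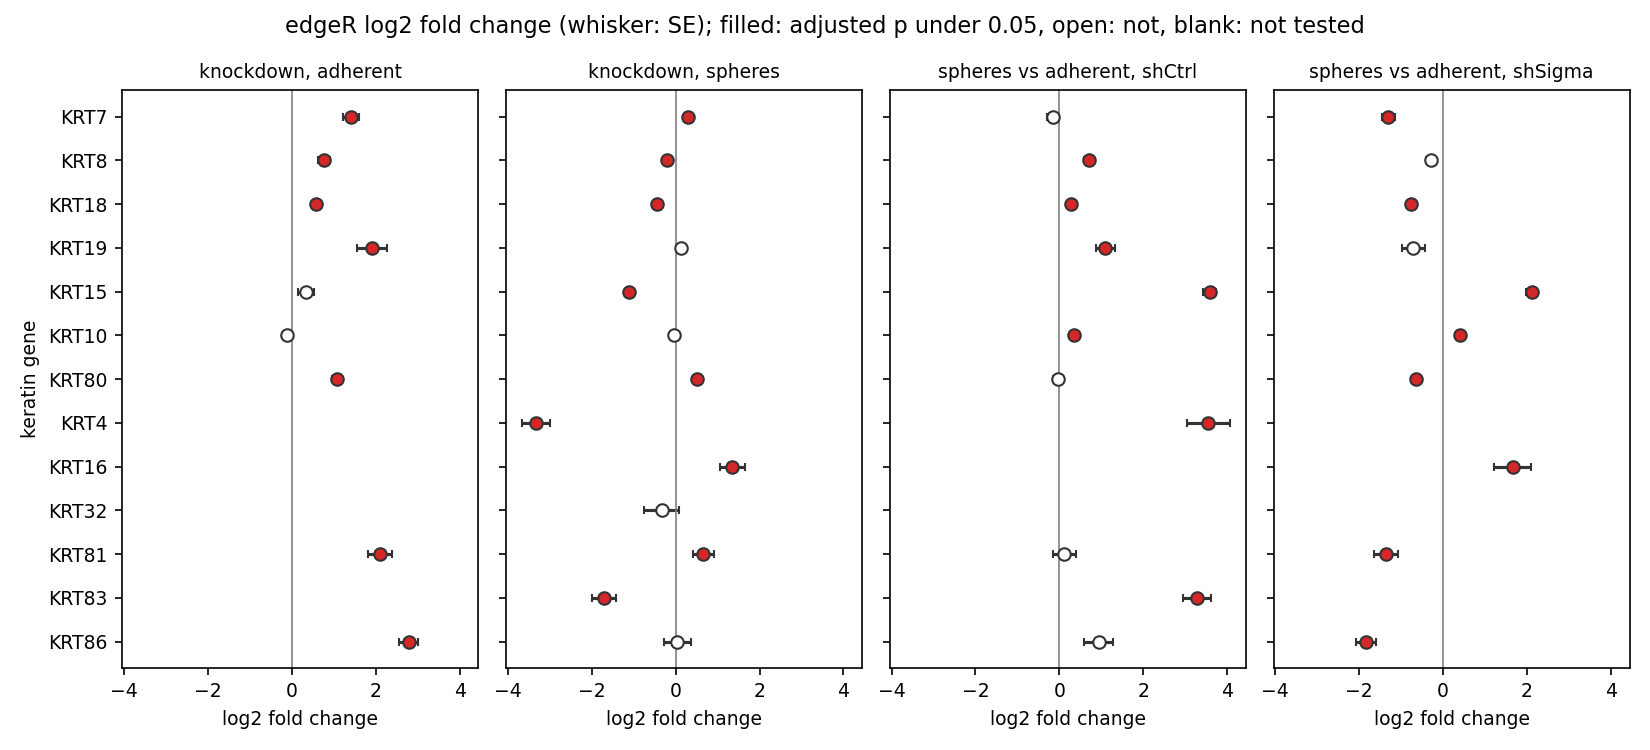
Log2 fold change of the 13 tested keratins in the 4 comparisons of 2 groups, from edgeR, with whiskers for the SE, filled points for an adjusted p below 0.05, open points for others and blanks where a gene was not tested. In adherent cells all filled points lie above 0, whereas in tumor spheres 4 lie above and 5 below.

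Tumor spheres did not show the same rise on knockdown. Of 13 keratins tested, 4 rose (KRT7, KRT80, KRT81 and KRT16) and 5 fell (KRT8, KRT18, KRT15, KRT4 and KRT83). The background was 61.1% of 13774 genes called, 30.2% as higher and 30.9% as lower, so the share of keratins called was near that of all genes. The median log2 fold change of the 13 keratins was -0.03, against 0.00 over all genes. With a change beyond 1 on the log2 scale, 4 keratins were called, where 13.1% of all genes were. The libraries did not overlap for 9 of the 13, where 66.8% of all genes did not. KRT4, KRT83 and KRT16 passed the filter through the group in which they were high, so these counts lend no weight of their own.

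KRT18 fell from 400, 403 and 371 CPM in control tumor spheres to 289, 296 and 282 CPM (log2 fold change -0.44, SE 0.0531, adjusted p = 2.11e-05). KRT8 was at 429, 358 and 366 CPM against 350, 338 and 311 CPM, groups that touched closely without overlap, with a log2 fold change of -0.21 (SE 0.0754, adjusted p = 0.0304). That call was lost in 6 of the 15 alternatives, in which adjusted p reached 0.173. KRT7 had 618, 546 and 558 CPM against 708, 731 and 664 CPM, a 1.22-fold rise (log2 fold change 0.29, SE 0.0646, adjusted p = 0.00239) that was not called when all 12 libraries shared one estimate of spread (adjusted p = 0.119). For KRT19, with 209, 183 and 202 CPM against 231, 210 and 211 CPM, the log2 fold change was 0.13 (SE 0.0636, adjusted p = 0.0944). KRT80 rose from 92.2, 79.5 and 94.996 CPM to 128, 128 and 122 CPM (0.50, SE 0.0705, adjusted p = 7.44e-05).

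Among the sparse keratins, KRT4, a type II keratin of moist stratified epithelia, had 28, 32 and 29 reads in control tumor spheres and 4, 2 and 3 in shSigma tumor spheres (log2 fold change -3.32, SE 0.334, adjusted p = 4.85e-06). KRT83, a hair cortex keratin, had 27, 29 and 32 reads against 7, 8 and 13 (-1.71, SE 0.28, adjusted p = 0.000246). KRT16, a type I keratin induced in hyperproliferative epidermis, moved the other way, from 8, 9 and 7 reads to 22, 19 and 24 (1.35, SE 0.29, adjusted p = 0.00164). For KRT81, with 23, 29 and 27 reads against 58, 44 and 29, adjusted p was 0.0388, and the call was lost in 8 of 15 alternatives. KRT32, a type I hair keratin with 5, 12 and 18 reads against 11, 6 and 12, and KRT86, with 18, 37 and 18 against 24, 34 and 21, overlapped between the groups. KRT10 overlapped as well, at 28.8 to 35.9 and 29.2 to 34.6 CPM.

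**Figure D3:**
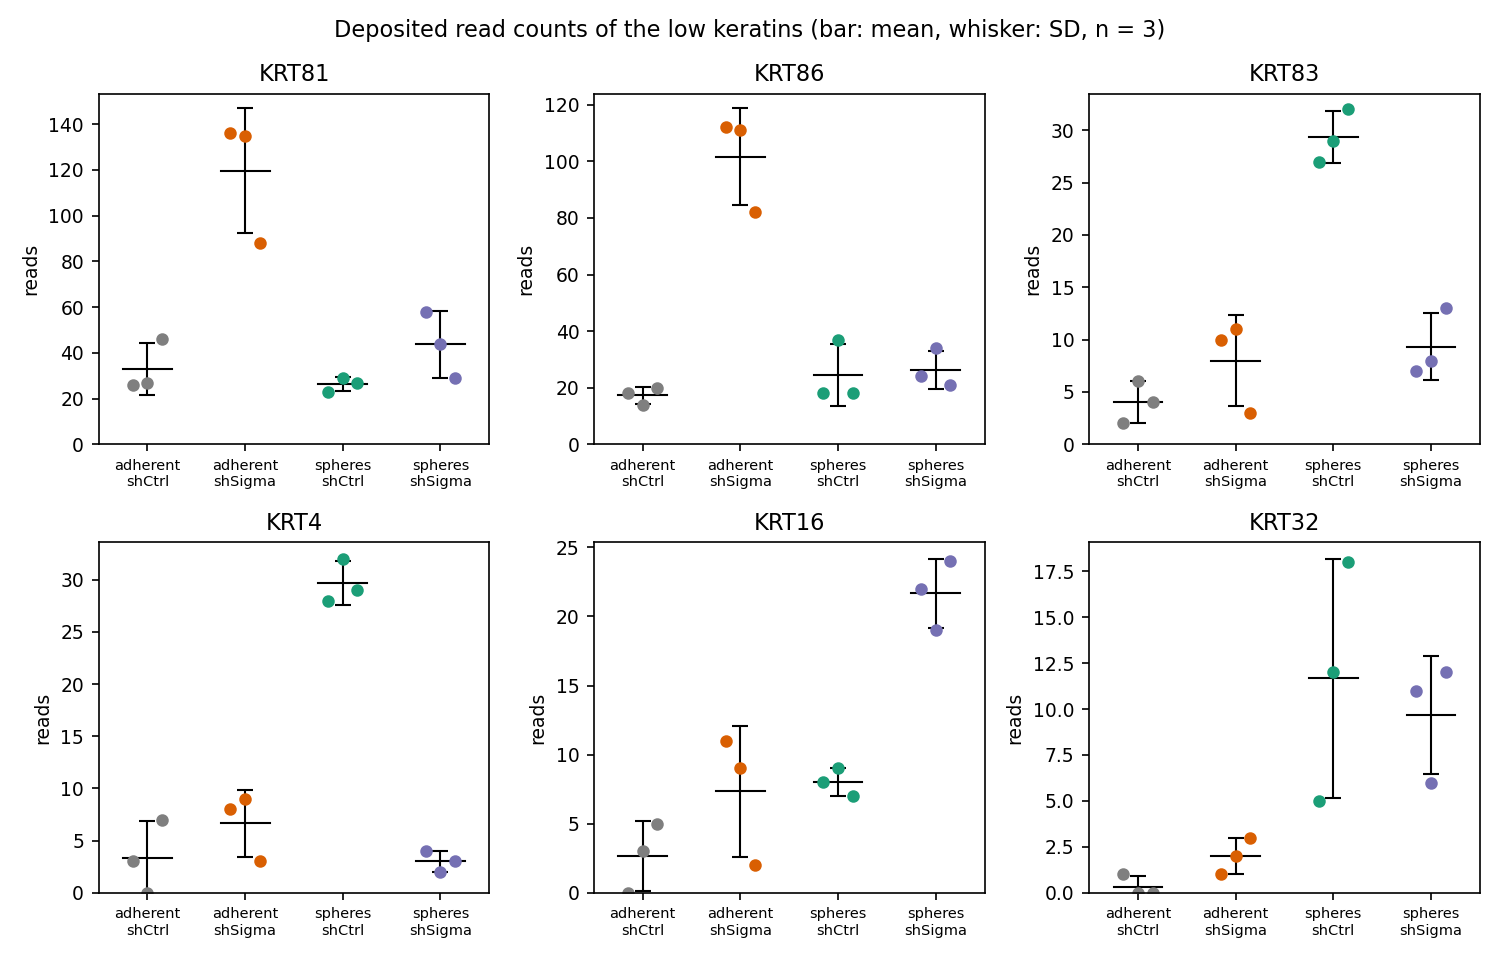
Deposited read counts of 6 keratins with few reads, by library, on linear axes that start at 0, with a bar for the group mean and whiskers for the SD (n = 3). KRT81 and KRT86 are highest in adherent shSigma cells, KRT83 and KRT4 in control tumor spheres with 27 to 32 reads, and KRT16 in shSigma tumor spheres with 19 to 24 reads.

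Culture moved the simple keratins differently in the shCtrl and shSigma lines. In the shCtrl line, 7 of 11 tested keratins were higher in tumor spheres than in adherent cells and 0 were lower by edgeR (0 also at an unadjusted p below 0.05 and by DESeq2), where 53.7% of 13800 genes were called, 27.4% as higher and 26.3% as lower. In the shSigma line, 3 of 10 were higher and 5 lower, where 47.1% of 13622 genes were called, 21.9% as higher and 25.2% as lower. The median log2 fold changes of the tested keratins were 0.71 and -0.68, against 0.04 and 0.00 over all genes. Beyond 1 on the log2 scale, 4 were called in the shCtrl line and 5 in the shSigma line, where 15.8% and 9.32% of all genes were. The libraries did not overlap for 8 of 11 and 9 of 10 keratins, where 62.7% and 60.8% of all genes did not. These counts and medians include KRT4 and KRT83 in the shCtrl line and KRT16 in the shSigma line. Those genes passed the filter only through the tumor sphere libraries in which they were high. Their culture calls, here and in the values below, therefore lend no weight of their own. The culture comparisons used the same libraries as the knockdown comparisons.

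In shCtrl cells KRT19 was 2.14-fold higher in tumor spheres (log2 fold change 1.09, SE 0.224, adjusted p = 0.00603), KRT8 1.64-fold (0.71, SE 0.123, adjusted p = 0.0023) and KRT18 1.22-fold (0.29, SE 0.0621, adjusted p = 0.00551). The KRT18 call was lost without replicate 1 of the control tumor spheres (0.24, adjusted p = 0.057). For KRT7 the log2 fold change was -0.16 (SE 0.139, adjusted p = 0.367), and without replicate 1 of the adherent cells it was -0.33 (adjusted p = 0.0195). KRT80 differed by -0.03 (adjusted p = 0.84), KRT81 by 0.12 (adjusted p = 0.726) and KRT86 by 0.93 (SE 0.351, adjusted p = 0.0529). KRT4 and KRT83 were higher in tumor spheres by 3.55 (SE 0.515, adjusted p = 0.000746) and 3.27 (SE 0.334, adjusted p = 0.00012), from 0 to 7 and 2 to 6 reads per adherent library. KRT10 was higher by 0.36 (SE 0.112, adjusted p = 0.0267), a call that was lost in 7 of 15 alternatives.

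In shSigma cells the simple keratins were lower in tumor spheres or not called. KRT7 was 2.48-fold lower (log2 fold change -1.31, SE 0.152, adjusted p = 0.00102) and KRT18 1.71-fold lower (-0.77, SE 0.0465, adjusted p = 1.47e-05). KRT8 changed by -0.29 (SE 0.117, adjusted p = 0.0808) and KRT19 by -0.71 (SE 0.28, adjusted p = 0.0859). Both were called without replicate 3 of the adherent shSigma cells, KRT8 at -0.40 (SE 0.0597, adjusted p = 4.13e-05) and KRT19 at -0.97 (SE 0.0522, adjusted p = 1.9e-11). KRT80, KRT81 and KRT86 fell by 0.64, 1.35 and 1.84 on the log2 scale (adjusted p = 0.000787, 0.0076 and 0.000718). KRT16 was higher by 1.65 (SE 0.44, adjusted p = 0.0166), from 11, 9 and 2 reads in adherent cells, and KRT10 by 0.40 (SE 0.0794, adjusted p = 0.00451).

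The difference between the knockdown effects in the 2 cultures, which is also the difference between the culture effects in the 2 lines, was tested in one fit of all 12 libraries. The effect in tumor spheres was lower than in adherent cells for 10 of the 13 keratins and higher for 0 by edgeR (0 also at an unadjusted p below 0.05 and by DESeq2), where 28.4% of 14175 genes were called, 12.7% as higher and 15.6% as lower. It exceeded 1 on the log2 scale for 9 of the 10, and 8.54% of all genes were called beyond that size. Both counts include KRT4 and KRT83, which passed the filter only through the control tumor spheres in which they were high, so they lend no weight of their own. Among the simple keratins the difference was -1.82 (SE 0.394, adjusted p = 0.00743) for KRT19, -1.17 (SE 0.206, adjusted p = 0.00123) for KRT7, -1.08 (SE 0.0831, adjusted p = 6.41e-07) for KRT18 and -1.02 (SE 0.17, adjusted p = 0.000698) for KRT8. Without replicate 3 of the adherent shSigma cells these were -2.00 for KRT19, -1.24 for KRT7, -0.99 for KRT18 and -1.05 for KRT8, each still called. KRT10 showed the smallest, 0.02 (adjusted p = 0.936). All 10 calls held when any 1 library was left out.

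**Figure D4:**
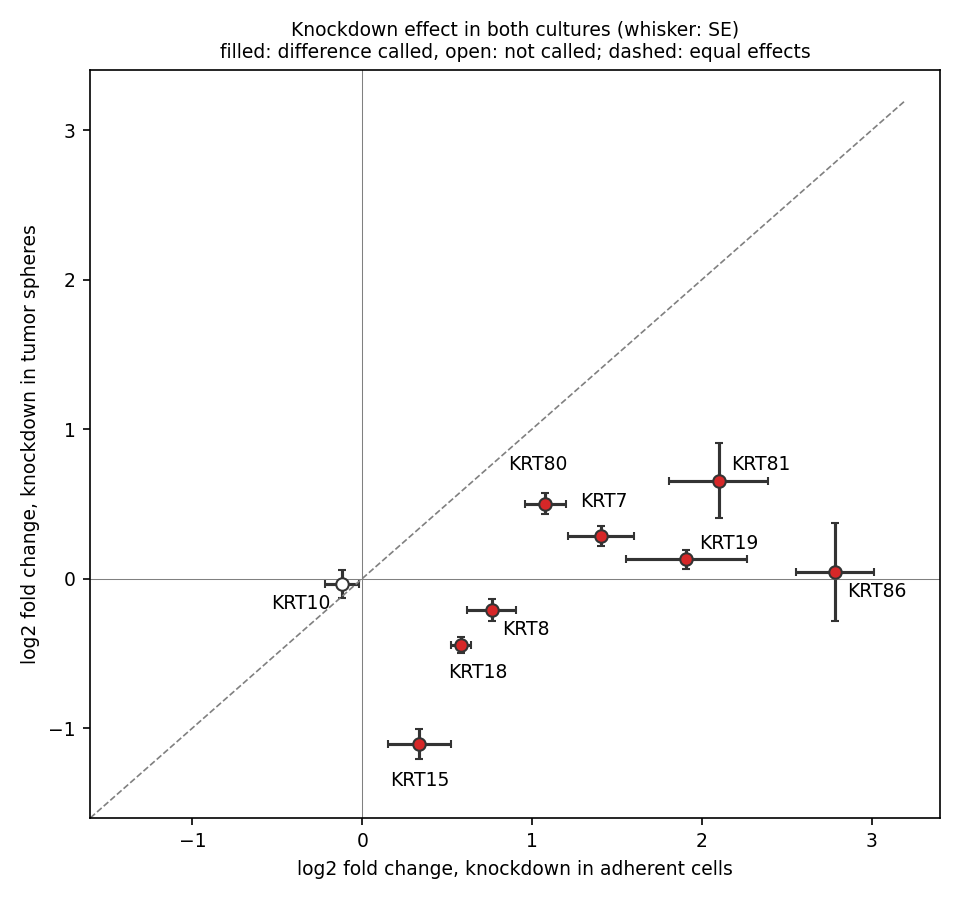
Knockdown effect in adherent cells (horizontal, log2 fold change) against that in tumor spheres (vertical) for the 9 keratins tested in both, with whiskers for the SE, filled points where the difference between the effects had an adjusted p below 0.05, and a dashed line of equal effects. All filled points lie below the line, KRT15 at 0.34 and -1.11 and KRT86 at 2.78 and 0.04, and KRT10 lies near it.

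The mixture of simple keratins shifted with these changes. As a share of the summed keratin level per kilobase, KRT7 took 42.8% ± 2.64 (SD, n = 3) in adherent shCtrl cells, 49.8% ± 1.07 in adherent shSigma cells, 31.6% ± 0.674 in control tumor spheres and 38.2% ± 0.827 in shSigma tumor spheres, so the shSigma line had the larger share in both cultures. KRT18 took 28.4% ± 4.11, 18.96% ± 3.70, 28.2% ± 1.50 and 20.5% ± 0.476. KRT19 took 10.5% ± 2.03 in adherent shCtrl cells and 17.1% to 20.3% on average in the other groups. The ratio of KRT7 and KRT19 to KRT8 and KRT18 was 1.44 ± 0.269 and 2.65 ± 0.535 in adherent shCtrl and shSigma cells, and 1.25 ± 0.0668 and 1.88 ± 0.0184 in the corresponding tumor spheres, without overlap between the lines in either culture. By MANE Select length the ratios were 1.28, 2.28, 1.007 and 1.504.

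The type II to type I ratio of the summed level was 1.38 ± 0.156 and 1.67 ± 0.0377 in adherent shCtrl and shSigma cells, and 0.963 ± 0.0515 and 1.25 ± 0.0425 in the tumor spheres. By MANE Select length it was 1.79, 2.18, 1.33 and 1.71, so the order of the groups was kept while the side of 1 for control tumor spheres was not. The order of KRT8 and KRT19 also depended on the length used, since the merged exons of KRT8 (6881 bases) were far longer than its MANE Select transcript (1784 bases). In adherent shCtrl cells KRT8 was at 34.0 and KRT19 at 39.7 CPM per kilobase of merged exons, but at 131 and 66.7 by MANE Select length.

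**Figure D5:**
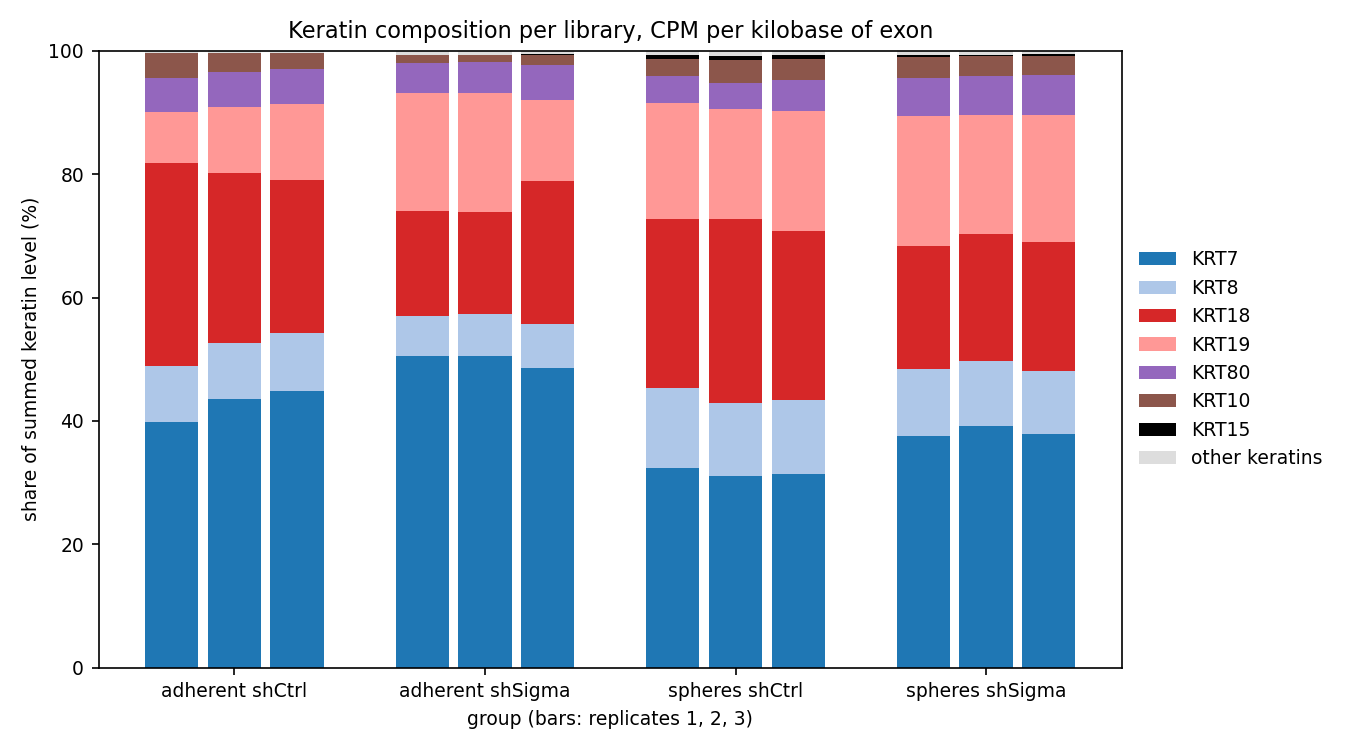
Share of each keratin in the summed keratin level (CPM per kilobase of merged exons), with 1 stacked bar per library from 0 to 100% and 3 bars per group in replicate order. KRT7 is the largest band in each group mean, from 31.6% in control tumor spheres to 49.8% in adherent shSigma cells, and KRT15 is a thin band in tumor spheres, 0.630% on average in the control line.

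Neighbouring keratin genes did not always share a call. KRT15 and KRT19 lie 1087 bases apart on chromosome 17 (GRCh38, KRT15 at 41513745 to 41522529 and KRT19 at 41523617 to 41528308, both on the minus strand), yet in tumor spheres KRT15 fell on knockdown while KRT19 was not called. KRT8 (chromosome 12, 52897187 to 52949954, minus strand) and KRT18 (52948871 to 52952906, plus strand) overlap, with 525 exon bases in common, which are 7.63% of the merged exons of KRT8 and 17.1% of those of KRT18. KRT7 (52232520 to 52252186, plus strand) shares 282 exon bases with the antisense gene KRT7-AS, which had 1 to 90 reads per library, 90 of them in replicate 1 of the adherent shSigma cells. The libraries were directional, but whether strand was used in counting is not given in the sources used here, so reads from the shared bases cannot be told apart. KRT8 and KRT18 shared 9.49% and 13.9% of their 75-base windows with transcripts of other genes, and KRT19, KRT80, KRT10, KRT4 and KRT32 shared 0%.

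Genes that work with keratins were described from lists of related function, and each count below is to be read against the share of all genes called, which was 50.0% for knockdown in adherent cells, 61.1% for knockdown in tumor spheres, and 53.7% and 47.1% for culture in shCtrl and shSigma cells. Some genes named below were near 0 in a group, among them PKP1, GRHL2 and DSG3 on knockdown. These passed the filter only through the group in which they were high, so their p-values lend no weight of their own. Among 18 genes for linkers and modifiers of keratin filaments, 6 of 17 tested rose and 4 fell on knockdown in adherent cells. PKP1, a desmosomal plakophilin, went from 0.215 to 5.25 CPM (log2 fold change 4.52, SE 0.239, adjusted p = 1.29e-05), and TGM2, a transglutaminase that crosslinks proteins, from 536 to 1698 CPM (1.61, SE 0.146, adjusted p = 0.000131). KLHL24, which directs keratin turnover, rose by 0.86 (SE 0.0891), and MACF1, a large linker of actin and microtubules, fell by 0.77 (SE 0.0736). In tumor spheres 8 of 17 rose and 6 fell. TGM2 rose from 209 to 1380 CPM (2.72, SE 0.0737, adjusted p = 1.01e-10), whereas DSP, the plakin that ties keratins to desmosomes, fell from 409 to 147 CPM (-1.49, SE 0.109, adjusted p = 2.54e-06), EPPK1 by 1.18 (SE 0.153) and PKP2 by 1.18 (SE 0.0882). Between cultures, 7 of 16 were higher and 6 lower in shCtrl tumor spheres, with JUP (plakoglobin) at 2.24 (SE 0.303), EPPK1 at 1.84 (SE 0.294), TGM2 at -1.36 (SE 0.14) and MACF1 at -1.21 (SE 0.0911). In the shSigma line 3 of 17 were higher and 8 lower, with JUP at 1.44 (SE 0.329), PKP1 at -1.13 (SE 0.154), TRADD at 0.79 (SE 0.22) and DST at -0.76 (SE 0.0554).

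Of 16 other intermediate filament genes, 4 of 12 tested rose and 6 fell on knockdown in adherent cells. The largest changes among those above 5 CPM were falls of NEFM (-2.64, SE 0.229) and NEFL (-2.30, SE 0.145), both neurofilament genes, of NES (-1.46, SE 0.157) and of LMNB1, a nuclear lamin (-1.196, SE 0.0819). In tumor spheres 5 of 11 rose and 6 fell. GFAP, the filament of astrocytes, went from 0.443 to 6.45 CPM (3.81, SE 0.28), while NEFM (-1.86, SE 0.153) and NEFL (-1.54, SE 0.154) fell as they had in adherent cells. VIM (vimentin), the filament protein of mesenchymal cells, was at 883 ± 46.4 CPM in adherent shCtrl cells, 1104 ± 44.7 in adherent shSigma cells, 170 ± 18.3 in control tumor spheres and 775 ± 31.0 in shSigma tumor spheres (SD, n = 3). Its log2 fold change on knockdown was 0.26 (SE 0.0729, adjusted p = 0.0207) in adherent cells and 2.18 (SE 0.0767, adjusted p = 9.14e-10) in tumor spheres. The difference between these effects was 1.87 (SE 0.112, adjusted p = 7.26e-08), opposite in sign to that of the 10 keratins. Of the 12 genes of this list tested for that difference, 4 were called as higher, 0 as lower and 8 were not called. Of all genes, 12.7% were called as higher and 15.6% as lower. Between cultures, 5 of 11 were higher and 4 lower in shCtrl tumor spheres, with VIM at -2.38 (SE 0.093), and 6 of 12 were higher and 4 lower in the shSigma line.

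Of the keratin gene regulators, 22 transcription factors known to act on keratin genes or epithelial differentiation, 16 were tested on knockdown in adherent cells, where 5 rose and 6 fell. ELF3 went from 7.28 to 24.3 CPM (log2 fold change 1.68, SE 0.149, adjusted p = 0.000103) and RUNX1 from 53.7 to 168 CPM (1.58, SE 0.08, adjusted p = 1.07e-05), SOX9 rose by 1.28 (SE 0.127) and TFAP2C fell by 1.23 (SE 0.095). In tumor spheres 5 of 18 tested rose and 11 fell. GRHL2, a keeper of epithelial gene expression, went from 35.4 CPM to 3 reads in the 3 shSigma libraries together (adjusted p = 1.29e-11), and OVOL2 from 6.16 to 0.488 CPM (-3.65, SE 0.206, adjusted p = 4.06e-08), while SOX2 fell by 2.69 (SE 0.152) and HES1 by 2.14 (SE 0.152). Between cultures, 13 of 18 were higher and 2 lower in shCtrl tumor spheres, where SOX2 went from 3 reads to 30.9 CPM, GRHL2 rose by 5.01 (SE 0.122), HES1 by 3.32 (SE 0.175) and ELF3 by 3.12 (SE 0.141). In the shSigma line 8 of 15 were higher and 5 lower, with CEBPA at 1.15 (SE 0.154), TFAP2A at -1.11 (SE 0.0688), KLF5 at -0.95 (SE 0.0752) and ELF3 at 0.86 (SE 0.0891). TP63, the regulator of basal keratin genes, had 5 to 11 reads per group.

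Of 19 keratinocyte differentiation genes, at most 5 were tested in any of the 4 comparisons. They counted 3 higher and 1 lower of 5 on knockdown in adherent cells, 1 and 2 of 5 in tumor spheres, 4 and 0 of 4 for culture in shCtrl cells and 2 and 1 of 5 in shSigma cells. DSG3, a desmosomal cadherin of squamous epithelium, had no read in adherent shCtrl cells and 33.4 CPM in adherent shSigma cells (adjusted p = 6.65e-06), and 7 reads in the 3 control tumor sphere libraries together against 31.1 CPM in shSigma tumor spheres (adjusted p = 7.76e-11). The desmosomal cadherin DSC2 fell on knockdown in adherent cells (-0.81, SE 0.0738) and in tumor spheres (-0.89, SE 0.0594), and its relative DSC3 rose in adherent cells (0.50, SE 0.119).

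Non-keratin markers were set beside the luminal and basal keratins. Of the 10 luminal markers, KLK3, a secreted protease that defines luminal cells, had at most 2 reads per group. On knockdown in adherent cells 3 of 4 tested rose and 1 fell. CD24, a surface protein of luminal cells, went from 22.8 to 495 CPM (log2 fold change 4.38, SE 0.0671, adjusted p = 1.19e-07), DPP4 changed by 0.62 (SE 0.174) and FOXA1, a factor of luminal genes, by -0.43 (SE 0.0729). In tumor spheres 3 of 6 rose and 3 fell, with DPP4 at 1.39 (SE 0.118), CD24 at 1.22 (SE 0.0611) and FOXA1 at -1.15 (SE 0.0831). For culture 4 of 6 were higher and 1 lower in shCtrl cells, and 3 of 4 were higher and 1 lower in shSigma cells.

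The 9 basal markers did not move as one with KRT15, and 7 of them were tested. On knockdown in adherent cells 3 rose and 2 fell, with ITGB4 at 2.38 (SE 0.499), COL17A1 at 0.82 (SE 0.174), S100A2 at -0.81 (SE 0.16) and CD44 at 0.59 (SE 0.079). In tumor spheres, where KRT15 fell, 4 rose and 2 fell. SERPINB5 (-3.02, SE 0.13, adjusted p = 4.07e-09) and S100A2 (-2.09, SE 0.101, adjusted p = 1.1e-08) were the 2 that fell, and the hemidesmosome genes COL17A1 (2.58, SE 0.145, adjusted p = 3.89e-08) and ITGB4 (0.59, SE 0.163, adjusted p = 0.0113) were among those that rose. For culture in shCtrl cells, where KRT15 rose, 3 were higher and 3 lower, with SERPINB5 at 2.88 (SE 0.116), S100A2 at 1.90 (SE 0.126), ITGA6 at -1.20 (SE 0.0602) and CD44 at -0.67 (SE 0.0617). In the shSigma line 2 were higher and 2 lower.

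CDH1 and EPCAM, the epithelial markers, went against the simple keratins on knockdown in adherent cells and along with some of them on knockdown in tumor spheres and between cultures in the shCtrl line. CDH1 (E-cadherin) was at 26.8 ± 0.0902 CPM in adherent shCtrl cells and 12.01 ± 1.72 in adherent shSigma cells, and at 727 ± 46.3 and 27.8 ± 3.34 CPM in the tumor spheres (SD, n = 3). EPCAM was at 235 ± 26.2, 30.9 ± 1.37, 613 ± 44.1 and 61.9 ± 1.53 CPM in the same order. On knockdown in adherent cells both fell (CDH1 log2 fold change -1.23, SE 0.102, adjusted p = 7.86e-05, and EPCAM -2.99, SE 0.105, adjusted p = 3.48e-06), while all 4 simple keratins rose there. On knockdown in tumor spheres CDH1 (-4.71, SE 0.0951) and EPCAM (-3.31, SE 0.0641) fell, as did KRT8 and KRT18 but not KRT7. From adherent to tumor sphere culture both rose in the shCtrl line (4.76, SE 0.0759, and 1.38, SE 0.0948), as did KRT19, KRT8 and KRT18, and both rose in the shSigma line (1.23, SE 0.124, and 1.02, SE 0.0566), where KRT7 and KRT18 fell. Markers of leukocytes, endothelium and neuroendocrine cells were low, whereas the fibroblast marker COL1A1 was above KRT15 in CPM in control tumor spheres. The 4 leukocyte markers summed to 0.117 to 1.19 CPM per library and the 2 endothelial markers to 0.0423 to 0.714 CPM. The 4 fibroblast markers summed to 3.47 to 26.5 CPM, mostly COL1A1 with LUM at 0, and the 2 neuroendocrine markers to 1.05 to 3.92 CPM with CHGA at 0. COL1A1 was higher in tumor spheres of both lines, at 22.7 and 11.98 CPM against 5.20 and 4.52 CPM in adherent cells. In that it moved with KRT15. COL1A2 did not, at 1.55 and 0.0849 CPM in shCtrl and shSigma tumor spheres against 1.70 and 0.196 CPM in adherent cells. The part of either gene in the result was not tested.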

How the data were processed

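RNA-seq was done on 12 DU145 libraries in 4 groups. The table holds raw read counts per gene, deposited by the authors. Directional libraries from 800 ng of RNA were sequenced as 75 nt single-end reads, and the authors aligned them to GRCh38.p12 and counted them with STAR (2.6.1c in the submitters' processing notes). The annotation, the use of strand and the handling of multi-mapping reads are not given in the sources used here. Ensembl identifiers were matched to GENCODE v44 for symbols, positions and exon lengths.

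Counts were filtered with filterByExpr (minimum count 10), scaled by TMM and tested with edgeR 4.0.16 (glmQLFit, robust, and glmQLFTest, two-sided) in R 4.3.3, on the 2 groups of each comparison and, for the difference of knockdown effects, on all 12 libraries. P-values were adjusted by Benjamini-Hochberg over all genes tested. The SE is the absolute log2 fold change divided by the square root of F. Scripts were tested on simulated data. DESeq2 1.42.0, other scalings, filters and thresholds, a replicate block and leaving out each library were alternatives. Replicates differed by more than sampling noise in every group (chi-square per gene 2.73 to 43.9), so none was counted as a duplicate.

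The keratins and gene lists were chosen with earlier results of these data known. Named were the 8 luminal and basal keratins, every keratin that passed the filter, and from each further list up to 4 called genes with the largest absolute log2 fold change and 5 CPM or more on average in whichever group was higher, though some of these are left out. VIM in adherent cells and the genes near 0 that define a list (KLK3, TP63, LUM, CHGA) were chosen for naming once their values had been seen. A check of the gene targeted by the hairpin is not reported here.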

Additional observations from a re-analysis of the deposited data

Results flagged for a closer look

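For 10 keratins the knockdown effect in tumor spheres differed from that in adherent cells by edgeR's test of the difference itself (all 12 libraries, Benjamini-Hochberg adjustment over all genes), each being lower in tumor spheres. On the log2 scale the differences were -4.58 for KRT4, -2.96 for KRT83, -2.79 for KRT86, -1.82 for KRT19, -1.50 for KRT15, -1.49 for KRT81, -1.17 for KRT7, -1.08 for KRT18, -1.02 for KRT8 and -0.63 for KRT80. KRT4 and KRT83 had at most 11 reads in any adherent library, so the adherent side of their difference rests on few reads. Both passed the filter only through the control tumor spheres in which they were high, so they lend no weight of their own to the count of 10.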

How the results depend on the processing

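Counts of called keratins ranged, with each library left out in turn, from 7 to 9 for knockdown in adherent cells, 7 to 9 for knockdown in tumor spheres, 6 to 9 for culture in shCtrl cells, 7 to 11 for culture in shSigma cells and 10 to 10 for the difference of knockdown effects. When a log2 change beyond 1 was also required, 4 keratins were called for knockdown in tumor spheres, 4 for culture in shCtrl cells and 5 for culture in shSigma cells, against 9, 7 and 8. Without a filter on low counts 11 were called for culture in shCtrl cells, KRT86 among them (adjusted p = 0.0437). No keratin changed direction while called, and scaling moved the median of all genes by less than 0.1. Of single keratins, calls were lost in 38 of the alternatives and gained in 11, and 14 of the losses came from the added fold threshold and 14 from leaving out 1 library.

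The simple share of the 8 keratins was, by longest transcript, 99.95% in adherent shCtrl cells, 99.97% in adherent shSigma cells, 99.45% in control tumor spheres and 99.74% in shSigma tumor spheres. By MANE Select length, added after the data were seen, it was 99.90%, 99.94%, 99.00% and 99.52%, and without division by length 99.89%, 99.94%, 98.91% and 99.48%. As a share of all 55 keratins it was 90.8%, 92.8%, 90.8% and 89.6%.

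Libraries of the same replicate number did not deviate together, with correlations of -0.849 to 0.429, so the numbers do not pair the samples. Some libraries of unlike number did deviate together. Among adherent libraries the correlation was 0.816 for shCtrl replicate 1 with shSigma replicate 3, and 0.782 for shCtrl replicate 3 with shSigma replicate 2. Across cultures in the shCtrl line it was 0.600 for adherent replicate 1 with tumor sphere replicate 2. Adherent replicate 3 had 0.450 with tumor sphere replicate 1 and -0.592 with tumor sphere replicate 2. A block by replicate number does not take up this likeness. With a replicate block 7, 9, 6, 9 and 10 keratins were called in the 5 comparisons, against 7, 9, 7, 8 and 10. Genes at a few reads per library, KRT32 among them, could not show differences of moderate size at this depth.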
